A study of Homo sapiens with 4 samples.

Results

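The miR-26 and miR-103/miR-107 families are 2 groups of microRNAs (miRNAs) whose hairpins lie in introns of protein-coding genes. Members were every name in the sequencing table that reads miR-26a, miR-26b, miR-103a, miR-103b or miR-107, with or without a locus number and an arm. The rule found 5 of the 746 names, which are miR-26a-5p, miR-26b-5p, miR-103a-1-5p, miR-103a-2-5p and miR-107. All 5 had at least 10 counts in every library, as had 280 of all names, so no member was lost to a filter on low counts. A name for miR-103b, for miR-103a-3p or for a 3p arm of miR-26 was not found in the table by this rule.

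The data were miRNA counts from non-irradiated U-251 cells, an established human glioblastoma line, in 4 libraries that the labels call biological replicates 1 to 4. The labels give the cells as WT, with treatment Vehicle and DMSO named in the titles, whereas the paper speaks of basal conditions. All 4 libraries form 1 group, so nothing was compared between conditions. The p-values below record only that a ratio had the same sign in these 4 libraries, whatever its spread. The labels describe a library made from captured mRNA, while the methods of the paper name a miRNA kit.

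miRNAs are short RNAs that are cut from hairpin precursors and loaded into Argonaute proteins, where bases 2 to 8, the seed, pair with target mRNAs. miR-26 is encoded within the CTDSP genes, which code for small phosphatases of the RNA polymerase II tail that also act on the retinoblastoma protein, and miR-26 is known to repress EZH2, a histone methyltransferase. miR-103 and miR-107 are encoded within the PANK genes, whose products, the pantothenate kinases, start the synthesis of coenzyme A, and both miRNAs are known to repress DICER1, the enzyme that cuts miRNA precursors. An intronic miRNA on the strand of its host can share the transcript of that host. The mRNA of the hosts was not analysed here.

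The mature sequences are shown because the seed defines each family and because single bases separate the names that were counted. They were taken from RefSeq on GRCh38.p14, with the seed in capitals, and all 5 members matched an entry. miR-103a-3p is shown beside them because it is the product that both miR-103a hairpins share.
miR-26a-5p: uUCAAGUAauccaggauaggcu
miR-26b-5p: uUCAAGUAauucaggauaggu
miR-107: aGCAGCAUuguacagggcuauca
miR-103a-3p: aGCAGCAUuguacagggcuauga
miR-103a-1-5p: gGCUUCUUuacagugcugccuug
miR-103a-2-5p: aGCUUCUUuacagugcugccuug

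miR-26a-5p and miR-26b-5p share the seed UCAAGUA. Counted from 1 at the 5′ end of miR-26a-5p, miR-26b-5p differs by C11U and C21U over the 21 bases compared, and their first 10 bases are identical. miR-107 and miR-103a-3p share the seed GCAGCAU and differ by G22C alone, so that their first 21 bases are the same. The 5p arms of both miR-103a hairpins have another seed, GCUUCUU, and differ from each other by G1A alone.

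The 6 hairpins behind these names lie on 6 chromosomes in GENCODE release 44 on GRCh38, the build named in the submitters' processing notes as hg38. MIR26B lies at chr2:218402646-218402722 on the plus strand, in intron 4 of CTDSP1. MIR26A1 lies at chr3:37969404-37969480 on the plus strand, in intron 5 of CTDSPL. MIR26A2 lies at chr12:57824609-57824692 on the minus strand, in intron 5 of CTDSP2. Each of these introns is followed by 3 exons of the canonical transcript. The 3 CTDSP introns were 629, 3524 and 2026 bases long, in the order CTDSP1, CTDSPL and CTDSP2.

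MIR103A1 lies at chr5:168560896-168560973 and is transcribed from the minus strand, inside PANK3. MIR103A2 lies at chr20:3917494-3917571 on the plus strand, inside PANK2. MIR107 lies at chr10:89592747-89592827 on the minus strand, inside PANK1. In all 3 PANK genes the hairpin sat in intron 5, which was followed by 2 exons. The hairpins began 419 bases after the upstream exon in PANK3, 443 in PANK2 and 369 in PANK1, although the introns were 2235, 1620 and 4419 bases long. For the miR-26 hairpins this distance was 240 bases in CTDSP1, 1521 in CTDSPL and 1653 in CTDSP2. Each of the 6 hairpins was on the strand of its host and overlapped no exon of the host's canonical transcript. On the opposite strand, the annotation places MIR103B1 at chr5:168560904-168560965 and MIR103B2 at chr20:3917502-3917563, within the miR-103a hairpins.

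**Figure D1:**
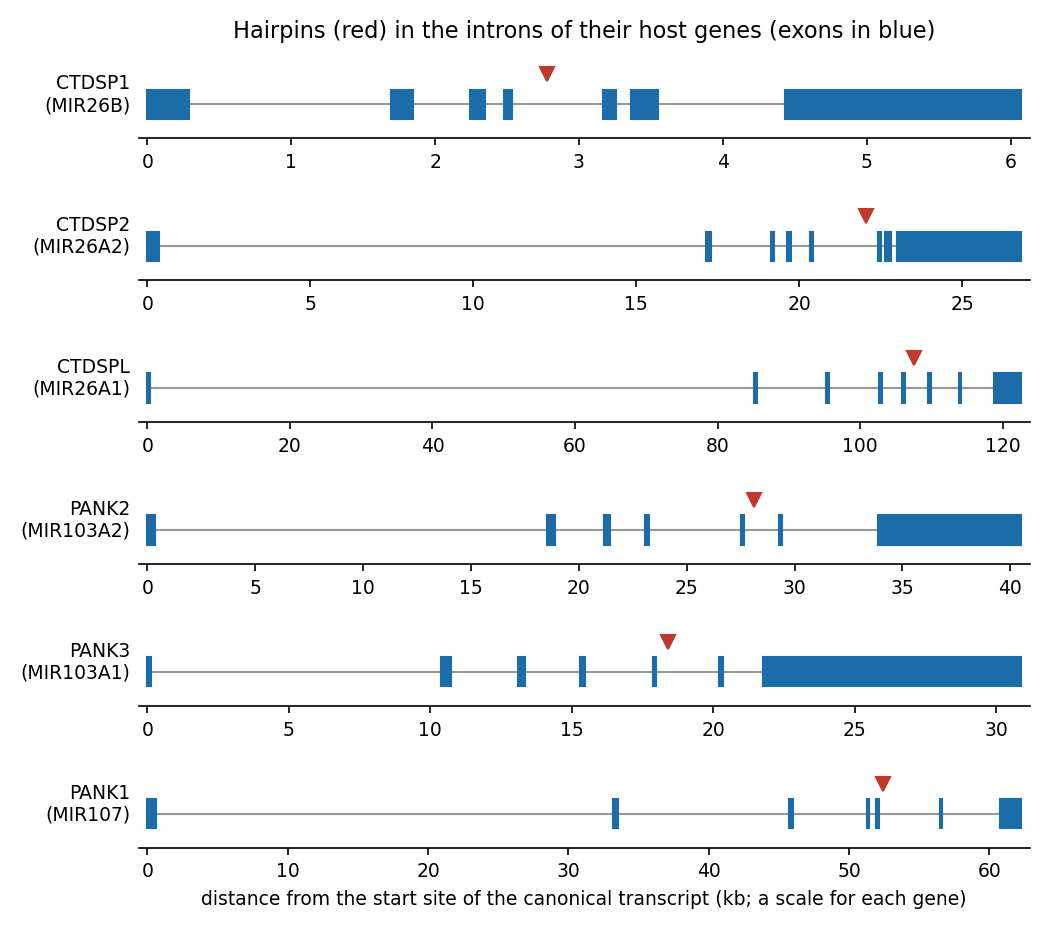
Exons (blue) and the hairpin (red triangle) of each of the 6 host genes, drawn as distance in kb from the start site of the canonical transcript, with a separate scale for each gene. The hairpin lies in intron 5 in all hosts but CTDSP1, where it lies in intron 4, and it is followed by 3 exons in the CTDSP genes and by 2 in the PANK genes.

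An intronic position was common in the table. Of the names matched to hairpin genes, 49.2% had every hairpin in an intron of a coding gene on the same strand. These 360 names held 14.9% ± 0.718 (SD, n = 4) of the counts, and the 5 members made up 14.9% ± 1.44 (SD, n = 4) of that class. With the nearly equal miR-103a rows averaged, the members made up 9.96% ± 1.25 (SD, n = 4). By mean share, miR-103a-2-5p stood at place 6 and miR-103a-1-5p at place 7 of the intronic names, miR-26b-5p at 12, miR-26a-5p at 18 and miR-107 at 24.

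The libraries held from 12363104 to 13214969 counts each. A library was called apart for a name where its gap to the nearest other library, divided by the range of all 4, exceeded the 95% limit that Dixon gives for a group of 4. Replicate 1 was apart for 21 of the 280 names, against 0, 3 and 7 names for replicates 2 to 4. Values without replicate 1 are therefore also given for the levels of the miR-26 names, their ratio and the SD of the members. Likeness of pattern, the miR-15/miR-107 group and the cell type markers are given with all 4 libraries only. Of the 5 glioma or neural miRNAs fixed for a check of the cell type, 4 had values (miR-21, miR-9, miR-10b and miR-128) and together held between 3.44% and 7.90% of the counts, while miR-124-5p was blank in every library. Of the 9 miRNAs fixed for liver, blood, muscle or epithelium, 8 had a name in the table and miR-223 had none. Their 9 names, with 2 arms for miR-1, included 8 with a value. They summed to between 0.0035% and 0.0056% of the counts, and miR-451a was blank. All marker names but miR-451a and miR-1-3p are listed as 5p arms, and the arm behind their counts was not checked. A blank need not mean that no read was found, so low or blank values do not show that a marker was absent.

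Levels are given as counts per 1000000 miRNA counts of the library (CPM). Because mature miRNAs have nearly one length, 21 to 23 bases here, CPM was not divided by length. In the order of their levels, the miR-103a names came first, followed by miR-26b-5p, miR-26a-5p and miR-107.

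miR-103a-2-5p, named for the hairpin in PANK2, was listed at 7928, 9357, 8120 and 7418 CPM in replicates 1 to 4. Its mean was 8206 ± 822 CPM (SD, n = 4), and it ranked 20 by summed count. miR-103a-1-5p, named for the hairpin in PANK3, was listed at 7889, 9304, 8079 and 7380 CPM in replicates 1 to 4, with a mean of 8163 ± 816 CPM (SD, n = 4). Both were highest in replicate 2 and lowest in replicate 4. The lowest place depended on the scaling, since it went to replicate 3 with TMM or DESeq2 factors and to replicate 1 with upper-quartile factors, while replicate 2 was highest with all of them.

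miR-26b-5p, the product of the CTDSP1 hairpin, was listed at 4539, 4349, 2895 and 3165 CPM in the same order of libraries, a mean of 3737 ± 828 CPM (SD, n = 4). miR-26a-5p, to which the hairpins of CTDSPL and CTDSP2 both give rise, was listed at 1744, 1386, 932 and 905 CPM in replicates 1 to 4, a mean of 1242 ± 401 CPM (SD, n = 4). Replicates 1 and 2 lay above replicates 3 and 4 for both miR-26 names, with library totals and with TMM, upper-quartile and DESeq2 factors. The highest value of miR-26b-5p was 1.57 times its lowest, and for miR-26a-5p it was 1.93 times. The table gives 1 value for miR-26a-5p, so the shares of its 2 loci cannot be told apart.

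miR-107, the product of the PANK1 hairpin, was listed at 869, 1004, 820 and 729 CPM in replicates 1 to 4. Its mean was 855 ± 115 CPM (SD, n = 4), and it ranked 62 by summed count. Like the miR-103a names, it was highest in replicate 2 and lowest in replicate 4.

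**Figure D2:**
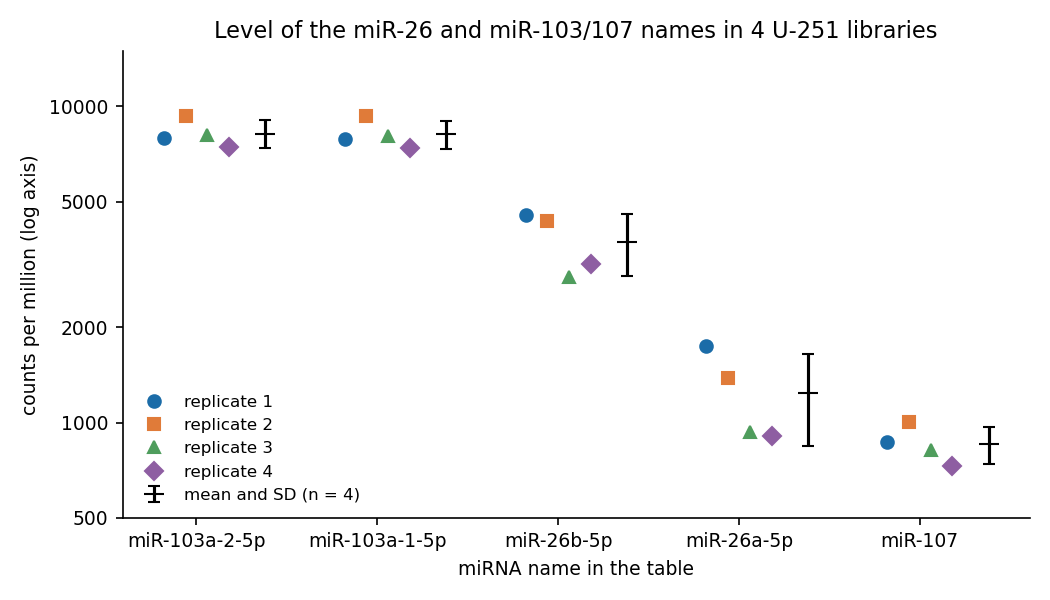
CPM (log axis) of the 5 members in each of the 4 libraries, with the mean and SD (n = 4) beside the points. The miR-103a names lie between 7380 and 9357 CPM, miR-26b-5p between 2895 and 4539, miR-26a-5p between 905 and 1744 and miR-107 between 729 and 1004.

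Counting error was small beside these differences. In replicate 4, miR-107, the least abundant member, had a share of 0.0729%, with a 95% interval by Wilson's method from 0.0715% to 0.0744%. Such intervals cover counting error only. Its counting error alone would give a coefficient of variation of 0.958%, against 13.4% between the libraries. For miR-26a-5p the corresponding values were 0.795% and 32.3%.

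The levels of the miR-103a names did not overlap those of miR-26b-5p, and those of miR-26b-5p did not overlap those of miR-26a-5p. The ranges of miR-26a-5p and miR-107 did overlap. Both statements on miR-26a-5p turned when its counts were multiplied by its 2 hairpins, which put it between 1809 and 3481 CPM, within reach of miR-26b-5p from 2893 CPM and above the 1002 CPM of the highest miR-107 library. Within a library, however, miR-26a-5p was above miR-107 in all 4, by 2.01, 1.38, 1.14 and 1.24-fold in replicates 1 to 4. Order was tested within libraries with a two-sided exact sign-flip permutation test of the log2 ratio, for which the smallest p that 4 libraries allow is 0.13 after rounding. Each of the 11 ratios between members or families that were computed had the same sign in all 4 libraries and gave this smallest exact p of 0.13, so none could pass a threshold of 0.05. The 11 ratios are not independent. That of miR-26a to miR-26b was taken in both directions, and several use the nearly equal miR-103a rows.

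Within the miR-26 family, miR-26b-5p exceeded miR-26a-5p in 4 of 4 libraries, by 2.60, 3.14, 3.11 and 3.50-fold in replicates 1 to 4. The mean log2 ratio of miR-26a to miR-26b was -1.62 with an SD of 0.18 (exact sign-flip permutation test, p = 0.13), and miR-26b-5p held 75.4% ± 2.29 (SD, n = 4) of the miR-26 counts. These ratios depend on how reads that fit both miR-26a hairpins were counted, since the miR-26a-5p values, such as 21870.5 in replicate 1, are not all whole. With its counts multiplied by its 2 hairpins, added once the data had been seen, miR-26b-5p was 1.54 ± 0.184-fold higher (SD, n = 4), still in 4 of 4 libraries, and held 60.5% ± 2.93 (SD, n = 4) of the miR-26 counts. Replicate 1 had the smallest gap between both names. Without replicate 1 the mean log2 ratio was -1.70 with an SD of 0.09.

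Within the miR-103/miR-107 family, miR-103a-2-5p exceeded miR-107 by 9.12, 9.32, 9.91 and 10.2-fold in replicates 1 to 4. The mean log2 ratio was 3.27 with an SD of 0.07 (exact sign-flip permutation test, p = 0.13). With both miR-103a rows summed, the mean log2 ratio of miR-103a to miR-107 was 4.26 with the same SD of 0.07, since this adds a nearly equal row. Reads that end before position 22 fit miR-103a-3p and miR-107 alike, and the text of the paper does not state how the counting treated them.

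The rows of the miR-103a loci were nearly equal. miR-103a-2-5p had 99443, 123650, 100394 and 94581 counts in replicates 1 to 4, where miR-103a-1-5p had 98954, 122948, 99881 and 94097. The difference was between 0.493% and 0.569% of their mean, with miR-103a-2-5p higher in every library. Of 4 pairs of names numbered 1 and 2 for the same arm, each with at least 10 counts in every library, 3 stayed within 10% of each other in every library. The other pairs within 10% were miR-92a-1-5p with miR-92a-2-5p, which were at most 1.08-fold apart, and miR-19b-1-5p with miR-19b-2-5p, which differed by 0.132% to 1.40%. The pair miR-29b-1-5p and miR-29b-2-5p differed by 18.3% to 24.8%.

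The miR-103a hairpins share a run of 23 bases on their 5′ side and of 27 bases on their 3′ side. A read that lies inside either run fits both loci, and the shares of PANK2 and PANK3, like the arm behind the counts, cannot be told apart from these rows. The 5p label was not particular to miR-103a. No name with at least 10 counts in every library was listed as a 3p arm, and miR-221-5p, miR-27b-5p, miR-23b-5p and miR-29a-5p were among those listed as 5p. Summing both rows may count reads more than once. The 3 miR-103/miR-107 names summed to 1.72% ± 0.175 (SD, n = 4) of the counts. With the miR-103a rows averaged, a setting added once the data had been seen, the share was 0.904% ± 0.0929 (SD, n = 4), of which miR-107 made up 9.44% ± 0.435 (SD, n = 4).

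**Figure D3:**
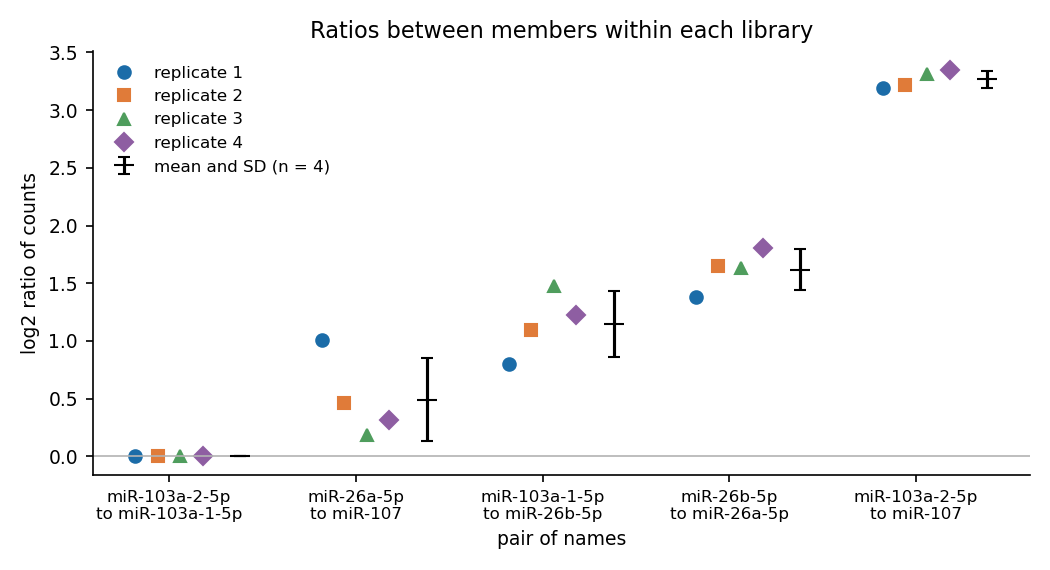
log2 ratio of counts between pairs of members within each of the 4 libraries, with the mean and SD (n = 4) beside the points. The ratio between the miR-103a rows stays close to 0, that of miR-103a-2-5p to miR-107 lies between 3.19 and 3.35, and the ratios that set a miR-26 name against a miR-103/miR-107 name have the widest scatter, with miR-26a-5p to miR-107 from 0.19 to 1.00.

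The miR-26 names together held 0.498% ± 0.121 (SD, n = 4) of the counts, with 0.628%, 0.574%, 0.383% and 0.407% in replicates 1 to 4. The mean log2 ratio of the miR-26 names to the miR-103/miR-107 names was -1.82 with an SD of 0.31 (exact sign-flip permutation test, p = 0.13). With 1 miR-103a row it was -0.89, which corresponds to 0.539 times the miR-103/miR-107 counts.

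Families were also formed across the table from the seed of each name's RefSeq sequence, which 562 of the 621 names with a value had. The miR-26 seed family, made up of miR-26a-5p and miR-26b-5p, ranked 17 of 484 by mean share. Every rank takes the arm of the other names as listed, and the arm behind their counts was not checked. The seed of miR-107 ranked 36 by the names as listed, where miR-107 was its only name. If the miR-103a counts were instead read as the 3p arm, with 1 row counted, that seed ranked 11 of 483. Under the names as listed the miR-103a rows fall under the 5p seed GCUUCUU, which ranked 6 with both rows summed. That sum may count reads more than once, and the rank of this seed with 1 row was not computed. The relatives fixed for the miR-26 seed, miR-1297 and miR-4465, are not names in the table.

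miR-103 and miR-107 are often set together with miR-15, miR-16, miR-195, miR-424, miR-497, miR-503 and miR-646 as the miR-15/miR-107 group, which shares the bases AGCAGC near the 5′ end. Of these 8 fixed relatives, counting miR-15a and miR-15b apart, 7 had a name in the table, each with at least 10 counts in every library, and miR-646 had none. They held 3.85% ± 0.657 (SD, n = 4) of the counts. miR-16-5p led with 28306 ± 7256 CPM (SD, n = 4) and miR-15b-5p followed with 9573 ± 1699 CPM (SD, n = 4). The range of miR-15b-5p, from 7866 to 11735 CPM, overlapped that of the miR-103a names. miR-15a-5p had 433 ± 51.2 CPM (SD, n = 4), below miR-107 in every library, and the 4 others had means between 7.11 and 97.8 CPM. The 3 miR-103/miR-107 names made up 31.1% ± 3.68 (SD, n = 4) of the counts of all 10 names of the group when both miR-103a rows were summed, and 19.2% ± 2.61 (SD, n = 4) when they were averaged. miR-16-5p comes from the hairpins MIR16-1 and MIR16-2, and its value of 489192.5 in replicate 1 is not whole. These shares were not computed with its counts multiplied by its hairpins. As listed, with the 5p arm, the miR-103a rows do not have the seed of the group.

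**Figure D4:**
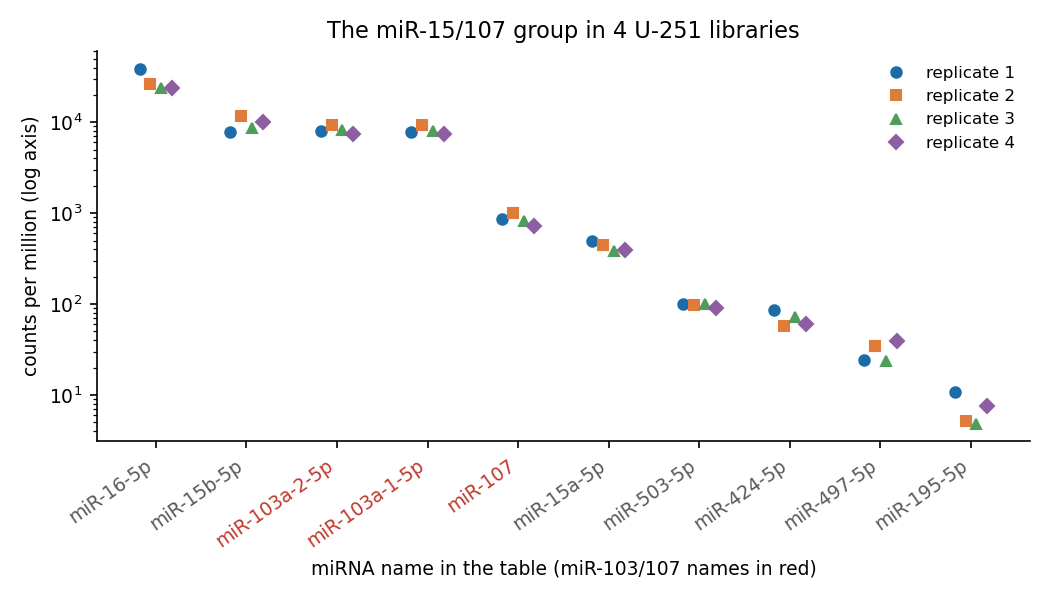
CPM (log axis) of the 10 names of the miR-15/miR-107 group in each of the 4 libraries, ordered by their mean, with the miR-103/miR-107 names written in red on the axis. The miR-103a names overlap miR-15b-5p and lie below miR-16-5p, and miR-107 lies between the miR-103a names and miR-15a-5p.

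The families differed in how steady they were between libraries. The SD over the 4 libraries of log2 CPM was 0.14 for each miR-103a name and 0.19 for miR-107, against 0.32 for miR-26b-5p and 0.46 for miR-26a-5p. Over the 280 names with at least 10 counts in every library the median was 0.29, and over the 58 names at least as abundant as miR-107 it was 0.21. Of the 280 names, 11.4% had a lower SD than miR-103a-2-5p, 24.3% a lower one than miR-107, 56.4% a lower one than miR-26b-5p and 73.6% a lower one than miR-26a-5p. Without replicate 1 the SD was 0.34 for miR-26a-5p, 0.31 for miR-26b-5p, 0.23 for miR-107 and 0.17 for each miR-103a name, while the median over all names went to 0.21. miR-107 then lay above that median, and so did the median of the 5 members, 0.23. With TMM or DESeq2 factors the SD of each miR-103a name was 0.09 and that of miR-107 0.14. Without replicate 2 the SD of miR-103a-2-5p went from 0.14 to 0.07 and that of miR-107 from 0.19 to 0.13.

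**Figure D5:**
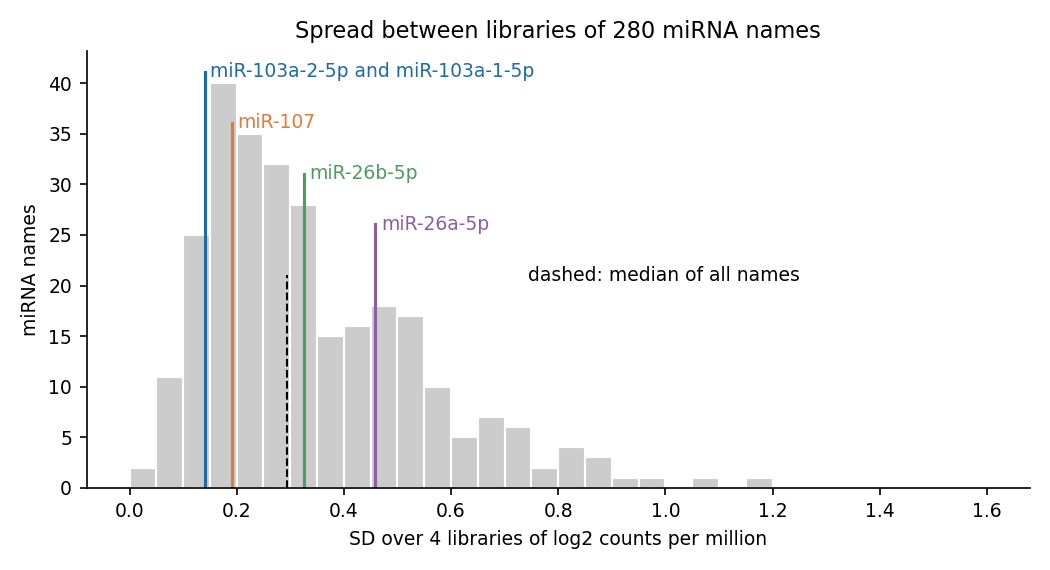
Number of miRNA names by the SD over the 4 libraries of their log2 CPM, for the 280 names with at least 10 counts in every library. Lines mark the members, with the miR-103a names at 0.14 and miR-107 at 0.19 below the median of 0.29 (dashed), and miR-26b-5p at 0.32 and miR-26a-5p at 0.46 above it.

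None of the 5 members had 1 library standing apart from the other 3. By the same call, 11.1% of the 280 names had such a library. The highest ratio among the members was 0.638, for miR-103a-2-5p at replicate 2, and the ratio of miR-26a-5p was 0.426.

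Replicate 1 was nevertheless the highest library for both miR-26 names. The log2 ratio of replicate 1 to the mean of the other libraries was 0.70 for miR-26a-5p and 0.39 for miR-26b-5p, against 0.03 for miR-107 and -0.07 for each miR-103a name. Over the 280 names the median was -0.07, and 86.4% of names had a lower value than miR-26a-5p. Without replicate 1, miR-26a-5p had 1075 ± 270.3 CPM and miR-26b-5p 3470 ± 773 CPM (SD, n = 3). The GC content of the mature sequence was 40.9% for miR-26a-5p and 33.3% for miR-26b-5p. It was 47.8% for miR-107 and, with the arm as listed, 47.8% for miR-103a-2-5p and 52.2% for miR-103a-1-5p. The median was 47.8% over the 254 names that had a RefSeq sequence and at least 10 counts in every library. The GC content of the hairpins was 55.8% for MIR26A1 and for MIR26B and 47.6% for MIR26A2. It was 48.7% for MIR103A1, 44.9% for MIR103A2 and 46.9% for MIR107. The summed share of the 4 glioma or neural miRNAs was also highest in replicate 1, at 7.90%, against 3.44% in the library where it was lowest. The part of GC content and of these markers in the excess of replicate 1 was not tested.

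Likeness of pattern was measured as the SD over the 4 libraries of the log2 ratio of counts, so that a small SD means that 2 names kept their ratio. Beside miR-103a-1-5p, the names most like miR-103a-2-5p were miR-105-5p (SD 0.03) and miR-125b-5p (SD 0.04), where the median over the 279 other names was 0.31. The names most like miR-107 were let-7d-5p (SD 0.04), miR-22-5p (SD 0.05) and miR-103a-2-5p (SD 0.07), so a miR-103a row stood at place 3 of 279. Seen from miR-103a-2-5p, miR-107 stood at place 12.

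For miR-26b-5p the nearest names were miR-1260b, miR-99a-5p and miR-204-5p, each with an SD of 0.09, and for miR-26a-5p they were miR-135b-5p (SD 0.11), miR-20a-5p (SD 0.13) and miR-200a-5p (SD 0.15). miR-1260b and miR-200a-5p had means of 27.7 and 6.33 CPM. miR-26a-5p stood at place 9 for miR-26b-5p and miR-26b-5p at place 7 for miR-26a-5p, with an SD of 0.18 between them. Across families the SD was larger, at 0.42 between miR-26a-5p and miR-103a-2-5p and 0.23 between miR-26b-5p and miR-107. With 4 libraries these values are a description of likeness and carry no test.

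The miR-103a rows were neighbours in rank, with miR-103a-2-5p above in 4 of 4 libraries. Every other neighbour in rank was above its member in at least 1 library and below it in at least 1. miR-30a-5p, with 8230 ± 383 CPM (SD, n = 4), was above miR-103a-2-5p in 2 of 4 libraries, and miR-191-5p, with 7843 ± 419 CPM, was above miR-103a-1-5p in 1. miR-361-5p was above miR-26b-5p in 3 of 4 libraries and miR-23b-5p in 1. miR-148b-5p and miR-28-5p were each above miR-26a-5p in 2 of 4. miR-20a-5p was above miR-107 in 1 library and miR-224-5p in 3.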

How the data were processed

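The 4 libraries came from miRNA sequencing of U-251 cells that had not been irradiated. The authors deposited estimated counts of reads per miRNA name with no normalization, called estimated since 40 names held values that were not whole. Per the paper, adaptors were trimmed with Trimmomatic, long reads were discarded, and the rest were mapped with Bowtie to hg38 and counted with miRDeep2. The miRNA release and the step behind values that are not whole are not given in the sources used here. Of the 40 names, 22 had 2 or more hairpins in RefSeq, miR-26a-5p among them, and multiplying by that number gave whole values, within 0.01, for 19. A further 23 names with 2 or more hairpins were whole throughout, so the table does not settle whether counts were divided by hairpins. Blank cells were set to 0, and no member had one. No column of per-sample values was without a sample.

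CPM and shares came from numpy 2.4.6 and pandas 2.3.3 in Python 3.11.15. Exact permutation tests and Wilson intervals used scipy 1.17.1, and plots matplotlib 3.10.9. edgeR 4.0.16 (TMM, upper-quartile) and DESeq2 1.42.0 under R 4.3.3 gave scaling factors from counts rounded to whole numbers. Hairpin genes came from GENCODE release 44, which matched 731 of 746 names. Host introns were read from the canonical transcript. A count of 0 allows up to 3 counts, or 2.43e-05% of the smallest library, if a blank means that no read was found. This need not hold. miR-24-1-5p had a mean share of 0.587% but was not among the names with at least 10 counts in every library. The steps were tested on simulated data.

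Members and lists were chosen with earlier results of these data known. Genes named were the members, for each the 3 names with the most similar pattern and its neighbours in rank, the fixed relatives of both seeds and the fixed cell type markers. Other numbered pairs were named after their values were seen. Alternatives covered the denominator, scaling, count minimum, seed length, hairpin number and leaving out each replicate.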

Additional observations from a re-analysis of the deposited data

How the results depend on the processing

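Of the 11 ratios tested, 3 were carried through the alternatives, and their direction held under every alternative run. With each replicate dropped in turn, the mean log2 ratio was -1.70 to -1.56 for miR-26a to miR-26b, 4.24 to 4.29 for miR-103a to miR-107 and -1.95 to -1.71 for the miR-26 to the miR-103/miR-107 names. With counts of miR-26a-5p multiplied by its 2 hairpins, added once the data had been seen, the first ratio was -0.62 and the miR-26 share 0.621%, which follows from the arithmetic. With Let-7 names left out of the denominator, the miR-26 share was 1.32% and the miR-103/miR-107 share 4.60%. With Let-7 names left out of both the intronic names and the denominator, the share of intronic names was 30.1%. With only names whose values are whole, which drops miR-26a-5p and Let-7a-5p, the miR-103/miR-107 share was 2.59%, and with the miR-103a rows averaged it was 0.904%. With each replicate dropped in turn, the miR-26 share lay between 0.454% and 0.536% and the miR-103/miR-107 share between 1.64% and 1.78%.

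The median SD of log2 CPM of the members, 0.19, went to between 0.13 (without replicate 2) and 0.23 with 3 libraries, and was 0.14 to 0.15 with TMM, upper-quartile or DESeq2 factors. The miR-26 seed family ranked between 17 and 19 with 3 libraries, the latter without replicate 1. The miR-103/miR-107 seed family ranked 35 to 37 in those fits and 11 with miR-103a read as the 3p arm. The intronic share was 20.99% when 1 intronic hairpin sufficed. Of 94 values recomputed for 16 results, 84 moved by less than the spread used to judge them or kept their direction, and 10 moved by more. No member had a library standing apart under any scaling run, where 10.0% to 14.3% of all names did. Names were paired within libraries for the ratios, but no paired comparison between conditions was possible because all libraries belong to a single group. The exact sign-flip permutation test cannot pass a threshold of 0.05 with 4 libraries, which limits every statement on order.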
